A study of Mus musculus with 68 samples.

Results

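The E2C group of this study of cloned mouse embryos held 6 RNA libraries of early 2-cell embryos made by somatic cell nuclear transfer (SCNT), numbered 1 to 6 in the labels, among 68 libraries in all. The members were chosen by stage and replicate number alone, and replicates 1 to 3 were compared with replicates 4 to 6, 3 libraries against 3. The comparison asked which genes separated the replicate sets, and whether those genes were also the ones that differed between the stages on either side of E2C, 14 h post activation (hpa) and the late 2-cell stage (L2C), each with 6 libraries. The embryos were labelled untreated. Oocytes came from superovulated BDF1 (B6D2F1) females, their spindles were removed at metaphase II, and the nucleus of a cumulus cell (CC), the somatic cell that surrounds the egg, was injected directly. The reconstructed oocytes were activated for 6 h in medium with SrCl2 and cytochalasin B and then cultured in G-1 PLUS medium. Each library was made by Smart-seq2, which copies polyadenylated RNA, from 10 blastomeres freed of zona and polar bodies, so a library is a pool of cells from an unstated number of embryos. The methods speak of 3 replicates per stage in one place and of up to 6 in another, and of 2 sequencing companies, and the study calls its 6 SCNT samples biologically independent in some figure legends. The labels number 6 E2C libraries and do not say which were sequenced where or made together, nor what separates replicates 1 to 3 from 4 to 6. The p-values below therefore measure the spread between these samples, part of which may be technical.

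At fertilization or activation the mouse embryo lives on RNA stored in the egg. A small first wave of transcription occurs in the 1-cell embryo (minor zygotic genome activation, ZGA), and the main wave follows during the 2-cell stage, when genes for ribosomes, RNA processing and energy metabolism are switched on while the stored maternal mRNAs are degraded. Levels of a gene between 14 hpa and L2C therefore combine RNA that is being made with RNA that is being lost, and a library of few cells gives only their balance.

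Levels are given in TPM (a length-corrected share of all transcripts of the library), summed per gene, and differences as log2(TPM + 1). Among 11406 genes with a mean of at least 1 TPM over the 18 libraries of 14 hpa, E2C and L2C, a gene was called where limma's adjusted p was under 0.05 and the difference at least 2-fold. The files hold no read counts, so no counting interval can be given. Aligned sequence was 3.44 to 4.49 gigabases in E2C replicates 1 to 3 and 3.17 to 3.26 gigabases in replicates 4 to 6. All 15 egg markers were present in every E2C library, at 4.70 TPM or more, and summed to between 23807 and 32449 TPM. The 32 markers of cumulus cells, the nuclear donors, summed to 53.6 to 70.7 TPM in replicates 1 to 3 and 32.1 to 45.0 TPM in replicates 4 to 6, against 5665 to 7413 TPM in the CC libraries. Of the 8 defining cumulus markers, 2 or 3 were at 0 in each library of the first set and 1 to 6 in the second, and they summed to 14.0 to 23.5 and 9.49 to 15.6 TPM. The part of such cells, or of RNA carried in with the nucleus, in the results below was not tested.

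The 2 replicate sets stood apart. Over the 11406 genes Pearson's r between libraries was 0.937 to 0.939 within replicates 1 to 3 and 0.967 to 0.970 within replicates 4 to 6, and 0.869 to 0.902 between the sets. Replicates 4 to 6 were nearer to 14 hpa replicates 4 to 6 (r = 0.949 to 0.956) than to any E2C library of the other set. In replicates 1 to 3, 849 genes were higher (7.44% of those tested) and 658 were lower (5.77%), together 1507 (13.2%). Of the 1507, 1496 had all 3 libraries of one set above all 3 of the other, a pattern that 42.9% of all tested genes also showed. With TPM rescaled over reference genes the split was 1111 higher and 488 lower. That scaling tested 12968 genes and moved the median difference of all genes from -0.06 to 0.07. Higher genes also outnumbered lower ones after quantile normalization, by 987 to 874. Leaving out replicate 1, 3, 4, 5 or 6 left 323, 348, 387, 347 or 338 lower genes, and leaving out replicate 5 left 564 higher genes. Without replicate 2 the balance was reversed. That fit had 771 lower genes, while no fit without 1 E2C replicate had more than 669 higher genes. In the bulk RNA of a pool, fewer cells expressing a gene and less RNA per cell cannot be told apart.

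The genes that were higher in replicates 1 to 3 were mostly genes that rise towards L2C. Between 14 hpa and L2C, in libraries that hold no E2C sample, 3790 genes rose (33.2%) and 1879 fell (16.5%), and 5669 were called in all (49.7%). Of the 849 higher genes, 753 rose between the stages (88.7%, beside 33.2% of all genes), 93 were not called between the stages (10.95%) and 3 fell. These 3 were Gm8787, Magea1 and Zp3r, named here after their values were seen. The 658 lower genes divided differently: 373 fell between the stages (56.7%, beside 16.5% of all genes), 255 were not called (38.8%) and 30 rose (4.56%). Replicate 1 of 14 hpa had only 7438 genes at 1 TPM or more, and replicate 1 of L2C had only 30.4% of its TPM in reference genes. Without both libraries 3962 genes rose and 1914 fell, and the shares were 89.8% and 56.1%. The median difference at E2C was 0.58 over the rising genes, -0.67 over the falling genes and -0.06 over all genes. Across the 11406 genes, which are not independent replicates and share the same 6 E2C libraries, the difference at E2C and the change from 14 hpa to L2C had a Pearson's r of 0.621. The plot of one against the other shows most called points in the upper right and lower left, and a band of lower genes that were not called between the stages.

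**Figure D1:**
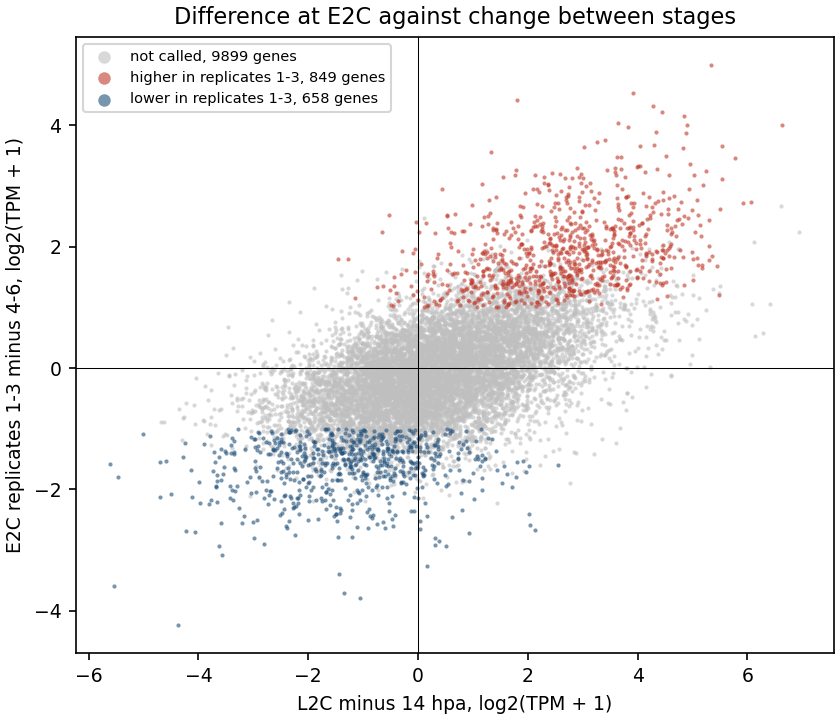
Each point is 1 of 11406 genes, placed by its change from 14 hpa to L2C (x axis) and by its difference between E2C replicates 1 to 3 and 4 to 6 (y axis), both as log2(TPM + 1), with genes called at E2C coloured by direction. Of the 849 higher genes 753 lie among the rising genes, and of the 658 lower genes 373 lie among the falling genes.

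The share of stage genes that separated the sets grew with the size of the stage change. Among rising genes with a change of 1 to 2 on the log2 scale, 168 of 2019 (8.32%) were higher in replicates 1 to 3. It was 22.9% (255 of 1115) for changes of 2 to 3, 46.0% (199 of 433) for 3 to 4, and 58.7% (131 of 223) for 4 or more. Falling genes gave 13.8% (180 of 1306), 29.1% (130 of 446), 47.1% (48 of 102) and 60% (15 of 25) that were lower in replicates 1 to 3. A call needs a 2-fold difference at E2C, which a gene with a small stage change can seldom reach. The growth of these shares therefore follows in part from the threshold. The median differences, which need no call, ran from 0.30 to 1.82 over rising and from -0.58 to -1.47 over falling genes. Of the 3790 rising genes, called or not, 2919 had a higher mean in replicates 1 to 3 (77.0%), beside 47.3% of all tested genes. The direction was not limited to called genes. The 3007 rising genes not called at E2C had a median difference of 0.38, beside -0.06 over all genes.

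Every E2C library was then placed on the line from the 14 hpa mean (0) to the L2C mean (1), over rising and over falling genes separately. Over rising genes replicates 1, 2 and 3 lay at 0.426, 0.483 and 0.392 (0.433 ± 0.0462, SD, n = 3). Replicates 4, 5 and 6 lay at 0.103, 0.0861 and 0.106 (0.0986 ± 0.0109, SD, n = 3), just below the 14 hpa libraries of the same numbers (0.111 to 0.170). Over falling genes the first set lay at 0.549, 0.409 and 0.509 (0.489 ± 0.0722, SD, n = 3) and the second at 0.117, 0.0866 and 0.107 (0.104 ± 0.0156, SD, n = 3). Thus the sets did not overlap on either axis. The stages themselves also differed between the sets, and with the ends taken from libraries of the same numbers the rising genes still placed replicates 1 to 3 at 0.452 to 0.530 and replicates 4 to 6 at -0.0198 to 0.00299. The falling genes placed them at 0.218 to 0.318 and 0.298 to 0.323, ranges that overlap but lie on different scales. On either scale alone the sets did not overlap over falling genes. With ends from replicates 1 to 3, replicates 4 to 6 lay at -0.0223 to 0.00891. With ends from replicates 4 to 6, replicates 1 to 3 lay at 0.638 to 0.785.

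**Figure D2:**
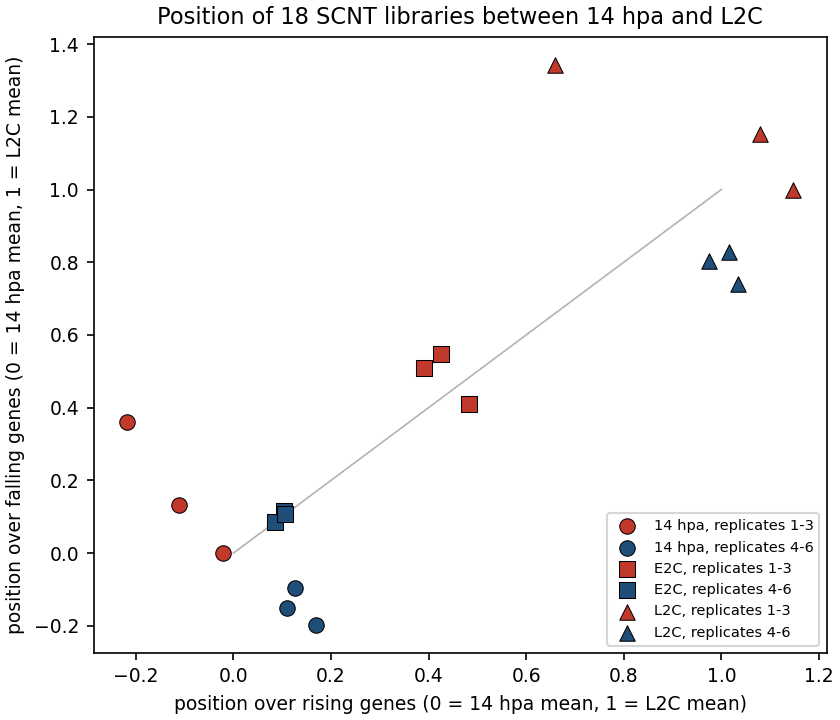
Position of the 18 SCNT libraries between the 14 hpa mean (0) and the L2C mean (1), over rising genes (x axis) and falling genes (y axis), each 14 hpa and L2C library placed against means without itself. E2C replicates 1 to 3 lie at 0.392 to 0.483 over rising genes, and replicates 4 to 6 lie at 0.0861 to 0.106, beside the 14 hpa libraries.

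Per gene, the 753 genes that were higher and rising had covered a median of 0.65 of their change from 14 hpa to L2C in replicates 1 to 3 and -0.01 of it in replicates 4 to 6. The 373 genes that were lower and falling had covered a median of 0.81 and -0.003. These fractions follow in part from how the genes were chosen. Over all 3790 rising genes, chosen without any E2C library, the medians were 0.38 and 0.0687.

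Genes are named by class below from those with a mean E2C level of at least 10 TPM whose E2C sets did not overlap, so the lack of overlap is a condition and not a result. The largest differences among the higher and rising genes were those of Cep97 (centrosomal protein, chr16:55899888-55934848, mm10), Ppcs (the second enzyme of coenzyme A synthesis, chr4:119418533-119422420), Cdkn2c (the CDK4 and CDK6 inhibitor p18, chr4:109660876-109666756), Spry2 (an inhibitor of receptor tyrosine kinase signalling, chr14:105891947-105896819), Hesx1 and Hes1. Cep97 was at 67.4, 61.2 and 19.2 TPM in replicates 1 to 3 and at 0.352, 0.195 and 0.615 TPM in replicates 4 to 6, a log2 difference of 5.00 ± 0.43 (SE, limma adjusted p = 4.0e-06), and it reached 76.1 to 171 TPM at L2C. Ppcs was at 52.3, 45.4 and 33.3 TPM against 0.192, 0.0724 and 4.27 TPM (4.54 ± 0.53, limma adjusted p = 4.0e-05). Both genes were low in the second set and in all 6 libraries of 14 hpa, where Cep97 did not exceed 7.94 TPM and Ppcs did not exceed 1.55 TPM. Even so, Cep97 was already higher in replicates 1 to 3 at 14 hpa. It was at 7.78, 2.96 and 7.94 TPM there against 0.664, 0.653 and 0.930 TPM (1.96, limma adjusted p = 0.00474). Cdkn2c was at 21.3, 19.4 and 28.8 TPM against 0, 0.102 and 0.268 TPM (4.41 ± 0.67, limma adjusted p = 2.7e-04), and at L2C it lay between 0.713 and 14.8 TPM. Its E2C level in the first set was thus above every L2C library. Spry2 was at 130, 84.2 and 46.3 TPM against 3.62, 1.95 and 3.94 TPM and at 100 TPM or more in every L2C library. It too was higher in replicates 1 to 3 at 14 hpa (1.61), while Ppcs, Cdkn2c, Hesx1 and Hes1 were not called there. Hesx1 and Hes1 encode transcriptional repressors, a homeodomain and a bHLH protein. Hesx1 was at 56.1, 48.3 and 41.3 TPM against 4.87, 0.0619 and 2.34 TPM. Hes1 was at 37.6, 62.7 and 24.9 TPM against 1.94, 1.11 and 1.28 TPM, and at L2C its order was the reverse, 15.2, 5.38 and 17.5 TPM in replicates 1 to 3 against 126, 99.6 and 68.5 TPM in replicates 4 to 6 (log2 difference -2.95).

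The promoters of 2 of these genes are shown, since Cep97 had the largest difference in its class and Cdkn2c lay above every L2C library in replicates 1 to 3. Each window runs from 250 bases before to 50 bases after the first start listed by RefSeq (GRCm38.p6), is written 5′ to 3′ along the gene's own strand, and has in capitals every match on either strand to 5 short motifs, overlapping matches included. The motifs are the CCAAT box, the GC box written GGGCGG, the TATA box in its form TATAAA, the E-box of the form CACGTG, and the core of the cAMP response element in its form TGACGT. The Cep97 window is chr16:55934799-55935098 (minus strand) and the Cdkn2c window is chr4:109666707-109667006 (minus strand). The first is 48.7% GC with 2 matches to CCAAT and 1 to TATAAA, and the second is 73.3% GC with 4 matches to GGGCGG.
Cep97: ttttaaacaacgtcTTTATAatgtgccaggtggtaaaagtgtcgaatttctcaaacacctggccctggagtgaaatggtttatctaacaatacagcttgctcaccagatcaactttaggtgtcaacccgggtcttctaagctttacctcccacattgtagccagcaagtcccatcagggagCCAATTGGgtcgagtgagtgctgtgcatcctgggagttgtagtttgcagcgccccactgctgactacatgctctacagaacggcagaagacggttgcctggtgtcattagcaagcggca
Cdkn2c: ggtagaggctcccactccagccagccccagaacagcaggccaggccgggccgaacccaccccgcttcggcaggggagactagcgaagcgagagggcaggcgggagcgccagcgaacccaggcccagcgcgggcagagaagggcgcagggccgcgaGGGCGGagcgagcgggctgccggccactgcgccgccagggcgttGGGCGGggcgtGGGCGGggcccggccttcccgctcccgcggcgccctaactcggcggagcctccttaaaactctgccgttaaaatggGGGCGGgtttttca
A promoter window was found for 8576 of the 11406 tested genes. CCAAT occurred in 40.2% of the 574 windows of higher and rising genes and in 40.4% of all 8576, GGGCGG in 62.5% and 61.2%, and TATAAA in 6.45% and 7.80%. A match is a string of letters and not a shown binding site.

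Of the 17 gene lists, cytosolic ribosomal proteins held the most higher genes. Of 79 cytosolic ribosomal protein genes tested, 30 were higher in replicates 1 to 3 and 1, Rpl36, was lower, with a median difference of 0.91 beside -0.06 over all genes. Over all genes 7.44% were higher and 5.77% lower at E2C, which is the background for every list. All 30 rose between 14 hpa and L2C, as did 70 of the 79. The summed level of the list was 6114, 5575 and 5733 TPM in replicates 1 to 3 and 4308, 3817 and 3901 TPM in replicates 4 to 6, so each library of the first set was above each of the second. Rpl7 was at 119, 82.4 and 93.1 TPM against 6.70, 11 and 18.8 TPM (log2 difference 3.0). Rps3a1 was at 266, 190 and 265 TPM against 45.8, 33.9 and 45.3 TPM (2.49). At 14 hpa 0 members were higher and 35 lower (median -0.97), where 22.5% of all genes were lower, 1.15% were higher and the median of all genes was -0.63. After quantile normalization, which brought that median of all genes to 0.04, the list's median at 14 hpa was -0.29. At L2C the list had 1 higher and 3 lower members, with a median of -0.01 that became 0.45 after rescaling and 0.44 after quantile normalization. Ribosomal protein genes have many processed pseudogenes that can share their reads, so single members are uncertain.

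Of 48 genes of the nucleolus and ribosome assembly, 10 were higher and 2 lower (median 0.36), beside 7.44% and 5.77% of all genes. Of the 10, 9 rose between the stages. Tsr1, needed for maturation of the small subunit, was at 35.8, 24.1 and 23.2 TPM against 1.69, 3.53 and 4.20 TPM (2.82). The lower members were Npm1, which encodes nucleophosmin, a main nucleolar protein (463, 487 and 430 against 903, 997 and 950 TPM), and Bms1 (3.90, 4.54 and 4.55 against 16.2, 14.9 and 15.8 TPM). Of 76 nuclear genes of the respiratory chain 9 were higher and 6 lower (median 0.01, or -0.003 with pseudocount 0.1). These counts are to be read beside the same 7.44% and 5.77% of all genes, whose median was -0.06. Ndufa9, a subunit of complex I, was at 59.2, 53.7 and 70.9 TPM against 8.95, 6.68 and 9.78 TPM (2.72), and reached 220 TPM or more at L2C. The plot of gene lists sets these medians beside those at the neighbouring stages.

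**Figure D3:**
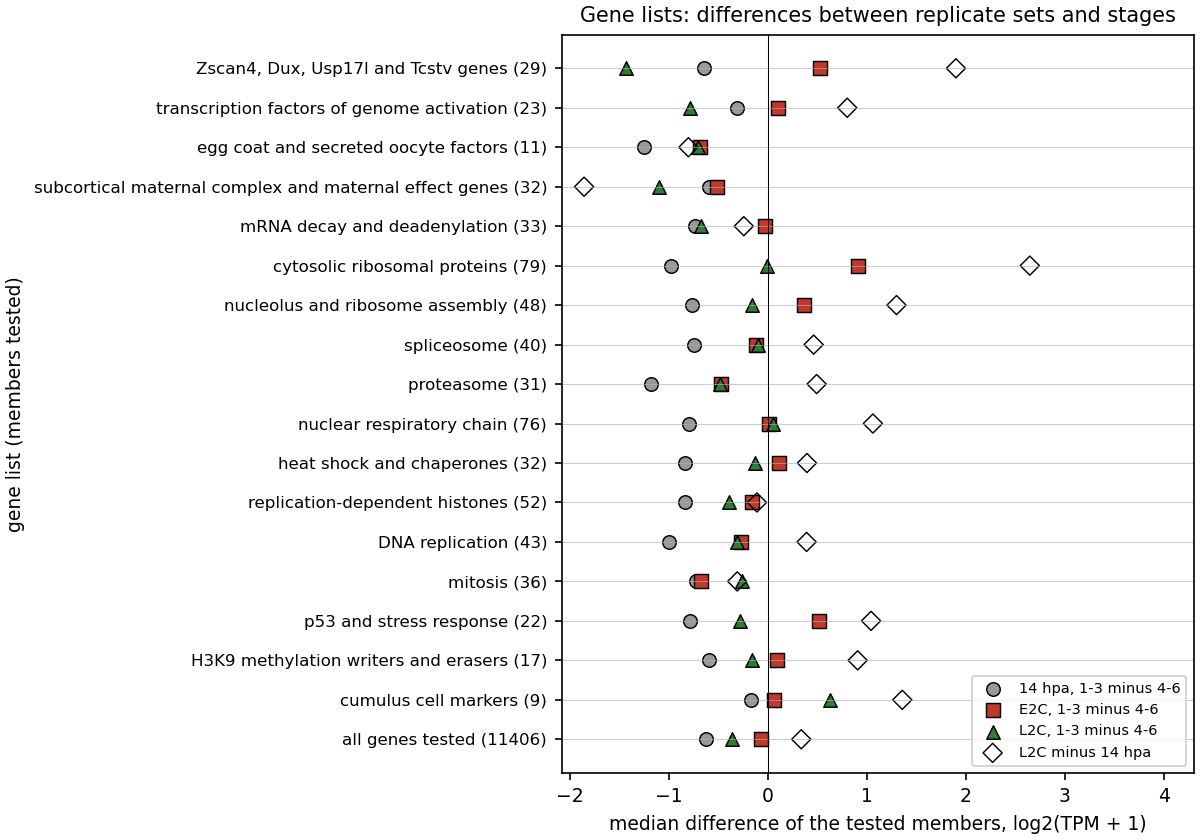
Median difference of the tested members of 17 gene lists, as log2(TPM + 1), between replicates 1 to 3 and 4 to 6 at 14 hpa, E2C and L2C and between L2C and 14 hpa. The ribosomal protein list lies at 0.91 at E2C and at -0.97 at 14 hpa, and the mitosis list lies at -0.67 at E2C and at -0.72 at 14 hpa.

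Crabp2 had the largest difference among such genes that were lower in replicates 1 to 3 and fell towards L2C. It encodes a retinoic acid binding protein (chr3:87948693-87953372) and was at 25.3, 54.6 and 62.4 TPM in replicates 1 to 3 and at 841, 800 and 912 TPM in replicates 4 to 6, a log2 difference of -4.23 ± 0.30 (SE, limma adjusted p = 2.3e-07). At 14 hpa it was at 435 to 944 TPM and at L2C at 20.4 to 49.0 TPM, so the second set had 14 hpa levels and the first set had nearly L2C levels. Akr1c18, a 20-alpha-hydroxysteroid dehydrogenase, was at 5.05, 2.63 and 3.64 TPM against 61.9, 69.2 and 40.2 TPM (-3.60). Nobox, an oocyte homeobox factor, was at 11.2, 33.3 and 8.10 TPM against 117, 128 and 111 TPM (-2.94), and it was also lower in the first set at 14 hpa (-2.0) and at L2C (-2.48). Nup93, a nuclear pore component, was at 2.53, 4.16 and 0.939 TPM against 32.9, 47.0 and 47.0 TPM (-3.70), below its 10.7 TPM or more at L2C. D6Ertd527e and Ppp1r35 completed the 6 named genes, with differences of -2.81 and -3.40.

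Of 32 subcortical maternal complex and maternal effect genes, 9 were lower and 0 higher in replicates 1 to 3 (median -0.51). Over all genes 5.77% were lower and 7.44% higher, with a median of -0.06. The lower members of the list were Uhrf1, Zar1l, Zar1, Tle6, Khdc3, Padi6, Ooep, H1foo and Nlrp5, of which 8 fell between the stages. Most of the list did so, 25 of the 32. Uhrf1, which recruits the maintenance DNA methyltransferase, was at 10.8, 16.7 and 7.15 TPM against 65.3, 68.4 and 68.5 TPM (-2.51), and had a like difference at 14 hpa (-2.63). At 14 hpa 12 of the 32 were lower and 0 higher (median -0.60), beside 22.5% of all genes lower and a median of all genes of -0.63. At L2C 17 were lower (median -1.10), beside 14.6% of all genes lower and a median of -0.36. The summed level of the list at E2C was 86100, 65651 and 82800 TPM in replicates 1 to 3 and 69954, 68311 and 69067 TPM in replicates 4 to 6, so by this measure the sets overlapped and 2 of the 3 libraries of the first set were the highest. At 14 hpa the sum was 81527, 79814 and 70193 TPM against 57958, 57286 and 53354 TPM, higher in replicates 1 to 3. The sum was carried by a few very abundant transcripts such as Omt2b, at 33187, 20211 and 31229 TPM against 20271, 18948 and 19116 TPM at E2C. Of 11 egg coat and secreted oocyte factors only Bmp15 was called lower, and that call was lost in several alternatives. Of 33 mRNA decay genes 6 were lower and 1, Zfp36l1, was higher. Cnot11, of the CCR4-NOT deadenylase, was at 3.54, 2.53 and 4.74 TPM against 26.4, 16.5 and 19.4 TPM (-2.24).

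**Figure D4:**
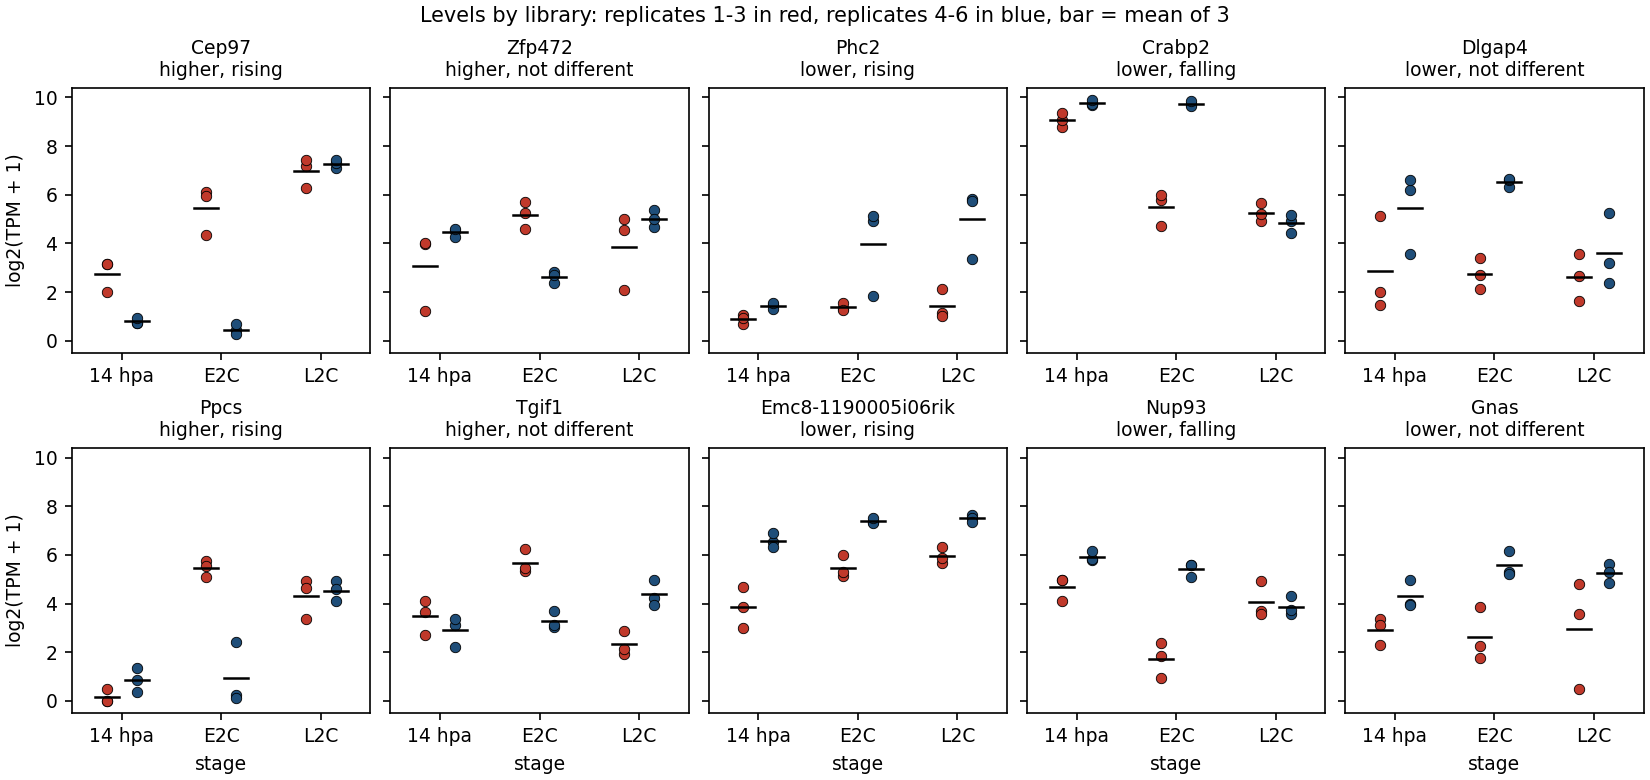
Levels of 10 named genes as log2(TPM + 1) (y axis) in the 18 libraries of 14 hpa, E2C and L2C (x axis), with replicates 1 to 3 and 4 to 6 side by side and bars at the mean of 3 libraries. Crabp2 at E2C lies between 25.3 and 62.4 TPM in replicates 1 to 3 and between 800 and 912 TPM in replicates 4 to 6.

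A further 255 lower genes were not called between 14 hpa and L2C, and the 6 named here had the largest differences among those with a mean E2C level of at least 10 TPM. Cdc20, the activator of the anaphase-promoting complex (chr4:118432901-118437343), was at 35.4, 37.7 and 29.9 TPM against 253, 275 and 263 TPM (-2.91 ± 0.37, limma adjusted p = 6.6e-05). At 14 hpa it was at 57.6 to 80.7 against 110 to 192 TPM and at L2C at 32 to 124 against 156 to 244 TPM, so the first set was lower at all 3 stages. Taf10, a subunit of TFIID and SAGA (chr7:105742894-105744338), was at 30.2, 30.1 and 26.8 TPM against 183, 215 and 196 TPM (-2.72 ± 0.28, limma adjusted p = 1.4e-05), with differences of -2.32 at 14 hpa and -1.69 at L2C. Gnb2l1, the ribosomal scaffold RACK1, was at 15.1, 13.3 and 13.5 TPM against 81.3, 90.9 and 103 TPM (-2.63). Dlgap4, Gnas and Jmjd6 had differences of -3.79, -2.94 and -2.80. The call of Gnas was lost without replicate 1, 3 or 5. Of the 255 genes, 180 were also lower in replicates 1 to 3 at 14 hpa and 67 at L2C, which are different libraries. The background for that count was high, since at 14 hpa 2563 of all genes were lower (22.5%) and 131 higher (1.15%), and at L2C 1661 were lower (14.6%) and 424 higher (3.72%). Without replicate 1, 4 or 6 of 14 hpa 1095, 1558 or 990 genes were lower there, without replicate 1 or 6 of 14 hpa 74 or 70 were higher, and without replicate 1 of L2C 1098 were lower at L2C. At 14 hpa replicates 1 to 3 had 7438 to 9103 genes at 1 TPM or more and replicates 4 to 6 had 10160 to 10564. After quantile normalization the 14 hpa split was 471 higher and 516 lower, the L2C split was 1038 and 1096, and 67 of the 304 genes in this class were lower at 14 hpa.

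The promoters of Cdc20 and Taf10 are shown as the named members of this class that had a window and the smallest standard errors. They come from the same table and are marked in the same way, at chr4:118437294-118437593 and chr7:105744289-105744588, both on the minus strand. The Cdc20 window is 58.7% GC with 2 matches to CCAAT and 1 to GGGCGG, and the Taf10 window is 65.7% GC with 1 match each to GGGCGG and TGACGT.
Cdc20: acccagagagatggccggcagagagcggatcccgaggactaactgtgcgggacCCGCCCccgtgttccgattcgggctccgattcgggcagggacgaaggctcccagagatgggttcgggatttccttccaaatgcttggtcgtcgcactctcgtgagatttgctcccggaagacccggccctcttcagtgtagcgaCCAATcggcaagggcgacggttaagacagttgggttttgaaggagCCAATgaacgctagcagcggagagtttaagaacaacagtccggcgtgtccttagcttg
Taf10: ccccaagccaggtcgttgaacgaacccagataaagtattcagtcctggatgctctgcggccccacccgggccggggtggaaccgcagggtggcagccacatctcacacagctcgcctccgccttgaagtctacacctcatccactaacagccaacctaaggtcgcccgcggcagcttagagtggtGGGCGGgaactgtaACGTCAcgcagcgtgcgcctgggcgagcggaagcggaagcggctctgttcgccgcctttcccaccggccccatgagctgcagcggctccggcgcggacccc
GGGCGG was found in 70.5% of the 193 windows of lower genes not called between the stages, beside 61.2% of all 8576 windows, and in 60.1% of the 291 windows of lower and falling genes. The transcripts of the same class had a median GC content of 53.8%, against 50.03% for lower and falling genes, 47.7% for higher and rising genes and 48.3% for all tested genes.

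The 93 higher genes that were not called between the stages had the lowest GC content, a median of 42.6%. Zfp472, a zinc finger gene, was at 23.4, 36.9 and 50.6 TPM against 4.22, 6.10 and 5.46 TPM (2.55), while all but 1 of its 14 hpa libraries and all but 1 of its L2C libraries lay at 14.7 TPM or more. Its mean in replicates 4 to 6 was thus below that of both neighbouring stages, and its call was lost without replicate 3 or 4. Tgif1, a homeodomain corepressor, was at 73.9, 39.1 and 43.1 TPM against 7.31, 7.60 and 11.8 TPM (2.39), above all 12 libraries of 14 hpa and L2C, which did not exceed 30.0 TPM. Fam208b was at 70.7, 71.5 and 68.6 TPM against 17.9, 20 and 16.3 TPM (1.90) and differed in the same direction at 14 hpa (1.5). Tyw5, a hydroxylase that modifies phenylalanine tRNA, was at 55, 39.4 and 51.8 TPM against 9.06, 17.4 and 9.23 TPM (1.99). Brcc3 and Zfp770 had differences of 1.82 and 1.70. By the same limma thresholds, replicates 1 to 3 were above both neighbouring stages in 26 of the 93 genes, and replicates 4 to 6 were below both in 15, beside 80 and 104 of all 11406 genes. The 93 genes were chosen by a difference between these same E2C libraries, so these counts follow in part from that choice.

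Only 30 genes were lower in replicates 1 to 3 and rose between the stages, against the direction of the rest. Ypel3 was at 43.0, 54.7 and 25.7 TPM against 163, 113 and 113 TPM (-1.68), and at 14 hpa it was at 2.91 to 12 against 61.7 to 72.1 TPM (-3.09). The locus written Emc8-1190005i06rik was at 34.5, 62.2 and 38.5 TPM against 160, 157 and 180 TPM (-1.90), and was also lower at 14 hpa (-2.73) and at L2C (-1.55). For both genes every library of the first set lay below every library of the second at all 3 stages. Phc2, a Polycomb subunit, was at 1.57, 1.89 and 1.41 TPM against 2.59, 29.3 and 34.2 TPM (-2.58), with replicate 4 close to the first set. Bloc1s4, Znhit2 and Gadd45gip1 had differences of -1.81, -1.62 and -1.52. The calls of these last 4 genes were lost when replicate 1, 3, 5 or 6 was left out.

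Whether a difference at E2C exceeded the one between the same replicate numbers at a neighbouring stage was tested as an interaction. Against 14 hpa, 853 genes had a higher difference at E2C (7.48%) and 82 a lower one (0.719%), together 8.2% of genes. Against L2C, 865 were higher (7.58%) and 222 lower (1.95%), together 9.53%. Of the 849 higher genes 521 passed this test against 14 hpa and 387 against L2C, and of the 658 lower genes 51 and 113 did. The 849 and 658 genes were chosen by the E2C difference that this test includes, so these counts follow in part from that choice. The median difference of all genes was -0.63 at 14 hpa, -0.06 at E2C and -0.36 at L2C, which also enters the counts. Leaving out replicate 2 or 5 left 558 or 553 genes with a higher difference than at 14 hpa, and leaving out replicate 5 or 6 left 40 or 46 with a lower one. Against L2C the lower count was 138, 122 or 131 without replicate 4, 5 or 6. After quantile normalization 291 of 987 higher genes and 102 of 874 lower genes passed against 14 hpa. Both interactions were called for Cep97, Ppcs, Cdkn2c, Spry2, Hesx1, Hes1, Zfp472, Brcc3, Crabp2, Nup93 and Akr1c18. Neither was called for Taf10, Nobox, D6Ertd527e, Ypel3, Jmjd6 or Gnas. In a fit over 53 SCNT libraries the number of higher and lower genes between the replicate sets was 13 and 24 at 6 hpa and 673 and 534 at E2C, and 100 and 145 in 8-cell embryos. The sets were thus apart at other stages too, with 388 higher and 2875 lower in the inner cell mass and 556 higher and 1208 lower in the trophectoderm.

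Cell cycle genes did not move as 1 group. Of 36 mitosis genes 8 were lower in replicates 1 to 3 (Cdc20, Plk1, Aurkc, Bub3, Kif20a, Fzr1, Ccnb3 and Incenp) and 3 were higher (Cdk1, Kif11 and Wee1), and the median was -0.67. Of all genes 5.77% were lower and 7.44% higher, with a median of -0.06. At 14 hpa 15 of the 36 were lower and 0 higher (median -0.72), beside 22.5% of all genes lower and a median of -0.63. Plk1, a mitotic kinase, was at 1.67, 8.30 and 5.90 TPM against 34.6, 29.4 and 35.1 TPM (-2.61). Wee1, the kinase that holds Cdk1 inactive, was at 15.2, 11.2 and 7.64 TPM against 1.26, 1.14 and 1.35 TPM (2.41), and Cdk1 itself was at 35.4, 46.2 and 44.2 against 13.8, 18.2 and 19.9 TPM (1.24). The 3 higher genes all rose between the stages. Of 43 DNA replication genes 6 were lower and 1 higher (median -0.27), and of 52 replication-dependent histone genes, which share sequence and mostly lack poly(A) tails, 1 was higher (Hist1h2ag) and 1 lower (Hist1h2bc), both calls that were lost in some alternatives.

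Proteasome genes were lower or not called, with 6 of 31 lower and 0 higher (median -0.47), beside 5.77% of all genes lower and a median of -0.06. At 14 hpa 22 of the 31 were lower (median -1.18), beside 22.5% of all genes and a median of -0.63. With TPM rescaled or quantile normalized, 2 were higher and 6 or 5 lower. Psma7 was at 178, 172 and 163 TPM against 500, 493 and 469 TPM (-1.51). Of 40 spliceosome genes 2 were higher and 5 lower, with a median of -0.12 that turned to 0.01 after rescaling and 0.05 after quantile normalization. Of 32 heat shock and chaperone genes 6 were higher and 5 lower. The shares over all genes were 7.44% higher and 5.77% lower. Hspa14 was at 46.5, 59.4 and 31.8 TPM against 201, 248 and 252 TPM (-2.36), and Cct6a, a subunit of the TRiC chaperonin, at 13.8, 13.7 and 13.5 TPM against 1.58, 3.28 and 1.39 TPM (2.30).

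Of 22 p53 and stress response genes 3 were higher and 2 lower (median 0.52), beside 7.44% and 5.77% of all genes and a median of -0.06. The largest called differences were those of Ddit4 (-1.79), Sesn1 (1.75) and Gadd45a (1.74). The calls of Sesn1 and Gadd45a were lost in several alternatives. Cdkn1a, the p21 inhibitor that p53 induces, was at 30.1, 29.7 and 31.0 TPM against 13.0, 7.57 and 10.7 TPM (1.48). Trp53 was at 19.4, 18.2 and 12.2 TPM against 43.4, 49.2 and 38.8 TPM (-1.37). Cdkn1a and Trp53 were not among the named genes followed through the alternatives. Of 17 genes for H3K9 methylation and its removal, Cbx3, Kdm3a, Ehmt2 and Setdb2 were higher and Setdb1 was lower, with the call of Kdm3a lost with pseudocount 0.1 and without replicate 1, 2, 4 or 5. Cbx3, which encodes the reader HP1 gamma, was at 163, 132 and 103 TPM against 25.4, 29.2 and 21.9 TPM (2.32). Setdb1, an H3K9 methyltransferase, was at 6.79, 10.3 and 6.97 TPM against 28.5, 25.1 and 22.6 TPM (-1.57). Of the 9 cumulus markers that passed the filter, Fst (7.45, 5.39 and 11.2 against 0.203, 0.477 and 0.0393 TPM) and Tnfaip6 (12.9, 8.61 and 6.64 against 1.01, 1.09 and 1.01 TPM) were higher, and both also rose between the stages.

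The called transcription factors of ZGA went both ways, and nearly all early 2-cell genes were not called. Over all genes 7.44% were higher and 5.77% lower. Of 23 transcription factors of genome activation, Dppa4, Yy1, Gabpa (a call lost in some alternatives) and Myc were higher and rising, and Klf17, Obox2, Nfyc and Tfap2c were lower. Dppa4 was at 38.2, 36.2 and 25.4 TPM against 7.34, 6.24 and 10.2 TPM (1.94). Klf17 was at 52.3, 71.2 and 45.5 TPM against 284, 308 and 325 TPM (-2.44). Of 29 tested Zscan4, Usp17l, Tcstv and related genes limma called 0 higher and 1, Arg2, lower, with 3 higher and 1 lower at an unadjusted p under 0.05. The call of Arg2 was lost in some alternatives, and with pseudocount 0.1 the list had 1 higher and 0 lower. Of this list 19 rose and 2 fell between the stages. Its median at E2C was 0.53, beside -0.06 over all genes. That median was 0.74 after rescaling, 0.47 after quantile normalization and 0.83 with pseudocount 0.1. At L2C the list had 0 higher and 6 lower members and a median of -1.43, beside -0.36 over all genes. These families are made of near-identical copies, so single members are uncertain. Zscan4c was at 26.2, 1.73 and 0.0834 TPM against 0.951, 1.5 and 0.135 TPM, Zscan4d at 17.1, 0.764 and 0.509 TPM against 2.40, 4.14 and 0.470 TPM, and Usp17lb at 7.46, 0.0396 and 0.221 TPM against 0.572, 0.707 and 0.459 TPM. In all 3 genes replicate 1 was far above the other 5 libraries, and the sets overlapped. Dux, the factor that drives this family, was below the filter and was listed at 0 in replicates 1, 2, 3 and 5. Max, the partner of Myc, was at 55.6, 67.6 and 46.8 TPM against 81.5, 84.3 and 72.9 TPM, a difference that limma did not call (-0.50, adjusted p = 0.203). Mcrs1 was at 9.29, 25.0 and 9.50 TPM against 23.8, 25.0 and 24.9 TPM, also not called (-0.86, adjusted p = 0.417).

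What was assembled from the reads differed along with the genes. E2C replicates 1 to 3 had 39786, 38321 and 39744 assembled loci and replicates 4 to 6 had 28892, 27871 and 28470, a ratio of means of 1.38 with no overlap. Loci outside reference genes numbered 13628 to 14551 against 8879 to 9412, a ratio of 1.56. Reference genes held 59.5 to 62.9% of TPM against 67.2 to 69.1%. The exact two-sided permutation test gave p = 0.1 for each of these measures, the smallest that 3 against 3 can give, and adjusted p = 0.1 over 6 measures. Genes at 1 TPM or more numbered 10122 to 10917 against 9903 to 9967, also with no overlap (exact permutation p = 0.1). Genes at 5 TPM or more did not separate the sets (6032 to 6593 against 6089 to 6186, exact permutation p = 1). At L2C loci numbered 40038 to 47866 in replicates 1 to 3 and 34441 to 38214 in replicates 4 to 6, and at 14 hpa 21628 to 30110 and 27392 to 28931. Aligned sequence was also greater in E2C replicates 1 to 3, and its part in the number of loci or of genes was not tested.

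**Figure D5:**
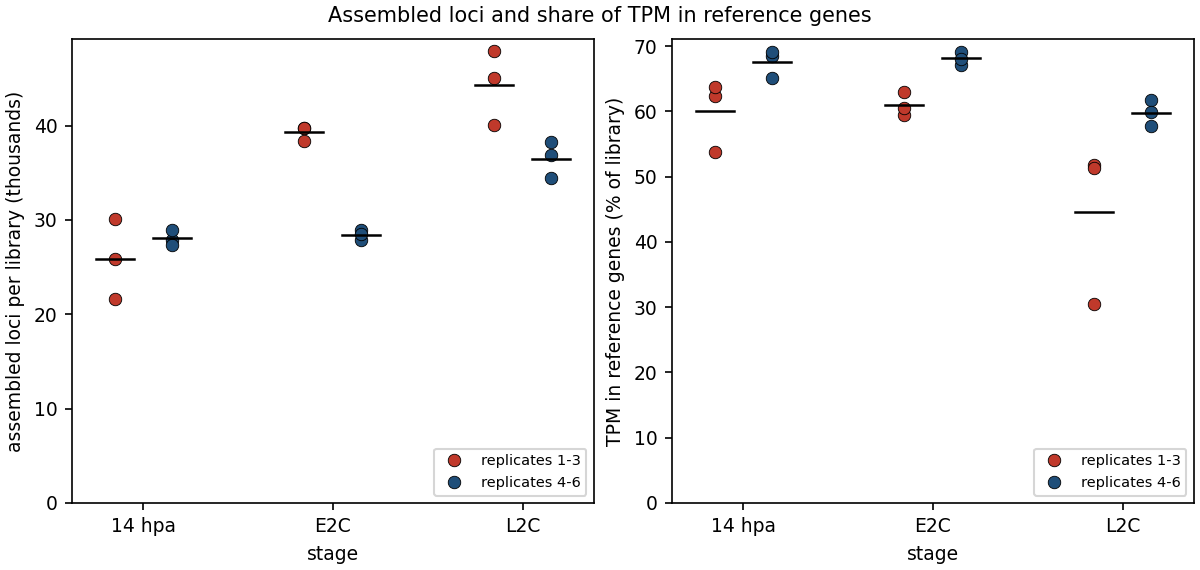
Number of assembled loci (axis divided by 1000) and percent of TPM in reference genes per library (y axes, both from 0) at 14 hpa, E2C and L2C (x axis), for replicates 1 to 3 and 4 to 6, with bars at the mean of 3. At E2C the first set lies at 38321 to 39786 loci and the second at 27871 to 28892.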

How the data were processed

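Polyadenylated RNA was sequenced by Smart-seq2 from 18 SCNT libraries of 14 hpa, E2C and L2C, with 35 further SCNT libraries and 3 CC libraries as background (56 tables read). Libraries were grouped by the stage and replicate number in their titles. The study's methods and the submitters' processing notes name cutadapt 1.16, HISAT2, StringTie, Cufflinks and deepTools, with alignment to mm10. The tables, 1 per library, list each assembled or reference transcript locus with deposited coverage, FPKM and TPM values computed by the authors. They hold no counts, so the count model of the study's methods was not used. Depth was taken as aligned gigabases, the median of the authors' coverage divided by FPKM over loci with both above 1. The values cover no counting error.

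Rows with a gene name (24421 genes) were kept and TPM was summed per gene. Genes whose TPM averaged 1 or more were fitted as log2(TPM + 1) with limma 3.58.1 in R 4.3.3, with 1 mean for each stage and replicate set, a variance trend and Benjamini-Hochberg adjustment over all 11406 genes. A fold change on this scale understates the change of low genes. Positions are projections on the line between stage means. Per-library measures used exact permutation tests. Tables were handled in pandas 2.3.3 and numpy 2.4.6 under Python 3.11.15, exact tests were run with scipy 1.17.1, plots were drawn by matplotlib 3.10.9, and the fit was tested on simulated data.

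Named genes were the 6 with the largest difference in each of 6 classes (direction at E2C by direction between the stages) among called genes with no overlap and a mean E2C TPM of at least 10, leaving out symbols that are only predicted or clone names, plus the 3 largest called members of each of 17 gene lists. Dux, Zscan4c, Zscan4d, Usp17lb, Max and Mcrs1 were fixed, and other members of the lists are given by name where counted. The members and lists were chosen with earlier results of these data known. Alternatives were another pseudocount (0.1), filters (none, or 5 TPM), scalings, libraries and trends on GC content or length removed (lowess, span 0.3). Tables of fertilized embryos (controls and Max or Mcrs1 knockdown) were not used here.

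Replicate numbers did not pair libraries across stages: the correlation of same-numbered deviations from the means of stage and set ran from -0.0859 to 0.0848.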

Additional observations from a re-analysis of the deposited data

Results flagged for a closer look

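In 8 of 48 groups of 6 libraries examined, 1 library lay far from the other 5. Chance alone marks about 1 in 20 groups, but 30 of the 48 were genes chosen for sets that did not overlap, where 1 far library is hardly possible, so 8 of 48 is not to be read against that rate. At E2C, replicate 2 had the most genes at 1 TPM or more, 10917, and the most aligned sequence, 4.49 gigabases. Replicate 1 of E2C stood apart with Zscan4c at 26.2 TPM, Zscan4d at 17.1 TPM and Usp17lb at 7.46 TPM, while the other 5 E2C libraries did not exceed 1.73, 4.14 and 0.707 TPM. These 3 genes belong to the families that mark the 2-cell embryo, and the 3 values come from 1 library. Replicate 4 of E2C had Dux at 1.86 TPM and the other 5 were at 0.0707 TPM or less. At L2C, replicate 1 had 30.4% of its TPM in reference genes, and replicate 3 had 4.67 gigabases of aligned sequence.

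The difference between replicates 1 to 3 and 4 to 6 itself changed between stages, by limma's interaction test, for 853 genes higher and 82 lower at E2C than at 14 hpa, and for 865 higher and 222 lower than at L2C. Among the 30 genes named by class, 11 passed against both stages. The 30 were chosen by a large E2C difference, which this test includes. Their counts and the amounts below therefore follow in part from that choice. The amount by which the E2C difference exceeded the one at 14 hpa was 3.04 for Cep97, 5.24 for Ppcs, 5.44 for Cdkn2c, 2.71 for Spry2, 3.82 for Hesx1, 4.02 for Hes1, 3.93 for Zfp472 and 1.99 for Brcc3 on the log2 scale. It was -3.53 for Crabp2, -2.46 for Nup93 and -3.89 for Akr1c18. Among the remaining 19, 13 passed neither test.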

How the results depend on the processing

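No named gene's called difference changed sign in the alternatives run, but balances did. At L2C 424 higher and 1661 lower genes became 1120 and 1047 after rescaling, between the stages 3790 rising and 1879 falling became 2740 and 2915 after quantile normalization, and the medians at E2C turned from -0.06 to 0.07 over all genes and from -0.03 to 0.13 over mRNA decay genes after rescaling. The higher and lower counts at E2C (849 and 658) moved past 1.5 times only as follows. The lower count was 436 with no filter on low values and 1019 in a fit of the 6 E2C libraries alone. Leaving out 1 E2C replicate gave 564 to 669 higher and 323 to 771 lower genes. The 771 came without replicate 2, where lower genes outnumbered higher ones. Removing trends on GC content gave 937 and 667, and on transcript length 981 and 787. Rising genes numbered 2198 at a mean of 5 TPM or more, and falling genes 2915 after quantile normalization. Leaving out 1 library of 14 hpa or L2C gave 3668 to 3964 or 3543 to 4063 rising and 1738 to 2052 or 1734 to 2013 falling.

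The share of higher genes that rise (88.7%) was 91.1% with pseudocount 0.1, 82.0% with no filter, 77.2% after quantile normalization and 81.3% with stage changes from replicates 4 to 6. Without 1 replicate it was 87.3 to 92.4% (E2C), 88.3 to 88.8% (14 hpa) and 87.9 to 90.5% (L2C). The share of lower genes that fall (56.7%) was 50.2% after rescaling, 62.6% after quantile normalization, and 45.3% and 62.8% with stage changes from replicates 1 to 3 and 4 to 6. Without 1 replicate it was 48.4 to 66.8%, 53.3 to 59.5% and 53.5 to 57.4%.

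Positions depended on the ends of the scale. Over rising genes replicates 1 to 3 lay at 0.486 and 0.363 with ends from replicates 1 to 3 and 4 to 6, and at 0.518 with pseudocount 0.1. Replicates 4 to 6 lay at 0.222 and -0.00491, at 0.158 with pseudocount 0.1, at 0.0823 after rescaling, at 0.0542 after quantile normalization and at 0.0652 over genes with no set difference at 14 hpa or L2C. The gap of 0.335 became 0.264 with ends from replicates 1 to 3 and 0.406 after quantile normalization. Over falling genes the first set lay at 0.273 and 0.726 with the 2 choices of ends and at 0.5997 over genes with no set difference. The second lay at -0.00257, 0.312 and 0.259, at 0.0850 with pseudocount 0.1 and at 0.163 after rescaling. The gap of 0.385 became 0.276 with ends from replicates 1 to 3.

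At 14 hpa quantile normalization gave 471 higher and 516 lower genes, and leaving out 1 replicate 70 to 165 and 990 to 3015. At L2C the higher count was 246 with pseudocount 0.1, 230 at 5 TPM, 1120 after rescaling and 1038 after quantile normalization, and the lower count 1047 and 1096 under the last pair. Leaving out 1 replicate gave 305 to 531 and 1098 to 2382. Interactions with 14 hpa numbered 562 and 52 with no filter and 356 and 177 after quantile normalization, and those with L2C had 437 and 628 lower genes after rescaling and quantile normalization. Leaving out 1 E2C replicate gave 553 to 675 and 40 to 64 against 14 hpa, and 607 to 738 and 122 to 186 against L2C. The causes of these shifts were not tested.

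With the replicate number as a block 3813 genes rose and 1884 fell, and the interactions were 939 and 83 against 14 hpa and 929 and 224 against L2C. The block left the E2C difference itself not estimable, and the numbers did not pair the libraries.

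Of 74 called named genes, 54 were called under every alternative run and 20 lost the call in at least 1: Arg2, Bloc1s4, Bmp15, Gabpa, Gadd45a, Gadd45gip1, Gnas, Hist1h2ag, Hist1h2bc, Kdm3a, Nop16, Pabpc1l, Phc2, Pole2, Polr1e, Sesn1, Sf3b4, Zar1l, Zfp472 and Znhit2. The fit without 14 hpa replicate 1 and L2C replicate 1 was chosen after seeing the data. No counts were used, so the depth behind low TPM values is unknown, and 3 libraries against 3 allow no exact p under 0.1. What distinguishes replicates 1 to 3 from 4 to 6 in handling is not stated, so timing of collection and processing cannot be told apart.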

Other observations

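Measured against 14 hpa (both sets averaged), E2C replicates 1 to 3 had 1365 genes above and 979 below, and E2C replicates 4 to 6 had 346 above and 236 below, by the same limma thresholds. Of the 658 lower genes, 62 were below both neighbouring stages in replicates 1 to 3, and 47 were above both in replicates 4 to 6, beside 198 and 155 of all 11406 genes. Of the 849 higher genes the counts were 33 with replicates 1 to 3 above both and 36 with replicates 4 to 6 below both, beside 80 and 104 of all genes. The 658 and 849 genes were chosen by a difference between these same E2C libraries, so their counts follow in part from that choice. Tgif1 was among the 33, and Nup93 was among the 62.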
